A study of Mus musculus with 10 samples.

Results

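Hoxa2, Hoxa3, Hoxa4, Hoxa5 and Hoxa6 are neighbouring genes of the anterior end of the mouse Hoxa cluster, all read from the minus strand of chromosome 6. They were chosen by name and located in mm9 with the GENCODE vM1 annotation, and they are 5 of the 22202 protein-coding genes it places on the chromosomes used here. The question asked of them was where Polycomb group (PcG) proteins and their histone mark lay along these genes in embryonic stem cells (ESCs), and what remained in neural stem cells (NSCs). ChIP-seq was performed for Ring1b, Cbx2, Ezh2 and H3K27me3 in ESCs and for Ring1b and H3K27me3 in NSCs, with 1 library per cell type and target. Each library gave 1 list of peaks called against input. The 4 input libraries were not analysed here.

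The ESCs were J1 cells grown with serum and LIF on feeders inactivated with mitomycin C, and the feeder fibroblasts were depleted before harvest. The NSCs were derived in culture from J1 ESCs and kept on gelatin with EGF and FGF, so they represent neural cells made in vitro and not a region of the embryonic brain. All cells were cross-linked with formaldehyde, and neither cell type carried a further treatment. For Ring1b the paper, but not the labels, gives an EGS cross-linking step before the formaldehyde. The Ring1b libraries also had inputs of their own, so Ring1b and the other targets were not prepared alike. A peak list states only where enrichment passed the authors' threshold. Depth is unknown from the lists, there are no replicates, and no test between ESCs and NSCs was possible, so a difference below is one between 2 libraries.

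Hox genes encode homeodomain transcription factors that give cells their position along the head to tail axis, and their order along the chromosome follows the order in which they act in the embryo. Genes at the anterior end respond first to retinoic acid and are used in the hindbrain and neck, while those at the Hoxa13 end act in the trunk, limbs and urogenital tract. Before they are needed, Hox clusters are held silent by PcG proteins. Ezh2 is the enzyme of Polycomb repressive complex PRC2 that trimethylates H3K27, Cbx2 is a PRC1 subunit that binds this mark and compacts chromatin, and Ring1b is the PRC1 subunit that ubiquitylates histone H2A.

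PcG peaks in mouse ESCs often lie at CpG-rich DNA, so the 250 bases before the start site are shown for 4 of the genes to let their CpG content be compared with the peaks described next. The sequences were read from mm9, are written 5′ to 3′ on the minus strand, and have each CpG dinucleotide in capitals. The Hoxa3 stretch overlaps exons of other Hoxa3 transcripts and is not printed.
Hoxa2 (chr6:52115413-52115662): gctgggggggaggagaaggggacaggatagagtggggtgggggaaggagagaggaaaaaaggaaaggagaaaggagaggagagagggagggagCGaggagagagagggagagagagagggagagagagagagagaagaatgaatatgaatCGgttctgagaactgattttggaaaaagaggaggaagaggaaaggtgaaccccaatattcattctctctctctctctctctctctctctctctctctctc
Hoxa4 (chr6:52141753-52142002): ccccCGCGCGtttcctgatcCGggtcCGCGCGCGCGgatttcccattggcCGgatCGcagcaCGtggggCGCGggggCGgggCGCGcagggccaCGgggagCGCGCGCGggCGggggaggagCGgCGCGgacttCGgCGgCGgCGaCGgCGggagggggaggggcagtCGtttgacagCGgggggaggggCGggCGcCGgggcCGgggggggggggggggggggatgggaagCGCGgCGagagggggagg
Hoxa5 (chr6:52154587-52154836): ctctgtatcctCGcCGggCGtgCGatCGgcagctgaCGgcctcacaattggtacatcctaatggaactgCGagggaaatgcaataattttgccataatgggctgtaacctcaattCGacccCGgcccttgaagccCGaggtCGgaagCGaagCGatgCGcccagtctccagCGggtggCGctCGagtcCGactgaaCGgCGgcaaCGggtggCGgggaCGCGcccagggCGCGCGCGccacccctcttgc
Hoxa6 (chr6:52158722-52158971): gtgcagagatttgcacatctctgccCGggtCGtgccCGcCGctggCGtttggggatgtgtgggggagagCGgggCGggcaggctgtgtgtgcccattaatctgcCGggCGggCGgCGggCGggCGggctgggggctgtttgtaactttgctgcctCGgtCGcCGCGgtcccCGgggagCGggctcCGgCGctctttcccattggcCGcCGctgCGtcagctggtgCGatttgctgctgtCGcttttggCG
Hoxa2 stands apart from the other 4 members in these sequences. It held 2 CpGs in 250 bases, against 21 for Hoxa3, 41 for Hoxa4, 28 for Hoxa5 and 27 for Hoxa6. Its GC content was 50.8% and its ratio of observed to expected CpG was 0.172, while the ratios of the other genes ran from 0.927 for Hoxa6 to 1.15 for Hoxa4. Across 22197 protein-coding genes the same 250 bases held a median of 8 CpGs and a median ratio of 0.501, and 92.4% of them held at least 1 CpG. The 1576 genes whose start site lay in an ESC Ring1b peak had a median of 19 CpGs. Few CpGs there were not particular to Hoxa2 among Hox genes. The 10 paralogues examined in the other Hox clusters held 1 to 9, with a median of 5.5. Hoxa9 held 3, while the median for Hoxa7 to Hoxa13 was 20.

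In ESCs, the start sites of all 5 genes lay inside a Ring1b peak and inside a Cbx2 peak. Those of Hoxa2, Hoxa5 and Hoxa6 also lay inside an Ezh2 peak, and those of Hoxa2 and Hoxa5 inside an H3K27me3 peak. In NSCs no start site of these genes lay inside a Ring1b or an H3K27me3 peak. Over all protein-coding genes, 7.1% had their start site in an ESC Ring1b peak, 1.19% in a Cbx2 peak, 2.7% in an Ezh2 peak and 4.36% in an ESC H3K27me3 peak. The corresponding shares were 1.72% for NSC Ring1b and 1.79% for NSC H3K27me3, so few genes of any kind had an NSC peak at the start site.

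The same counts were taken among genes that did have ESC peaks at the start site. Of the 1576 genes with the start site in an ESC Ring1b peak, 257 (16.3%) had it in an NSC Ring1b peak. Of the 255 genes with both ESC Ring1b and Cbx2 at the start site, as all 5 of these had, 123 (48.2%) had NSC Ring1b there, and the count for Hoxa2 to Hoxa6 was 0 of 5. For H3K27me3, 248 of 968 genes (25.6%) kept a peak at the start site in NSCs, and neither Hoxa2 nor Hoxa5 was among them. The 5 genes lie side by side under shared peaks and are not independent observations.

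**Figure D1:**
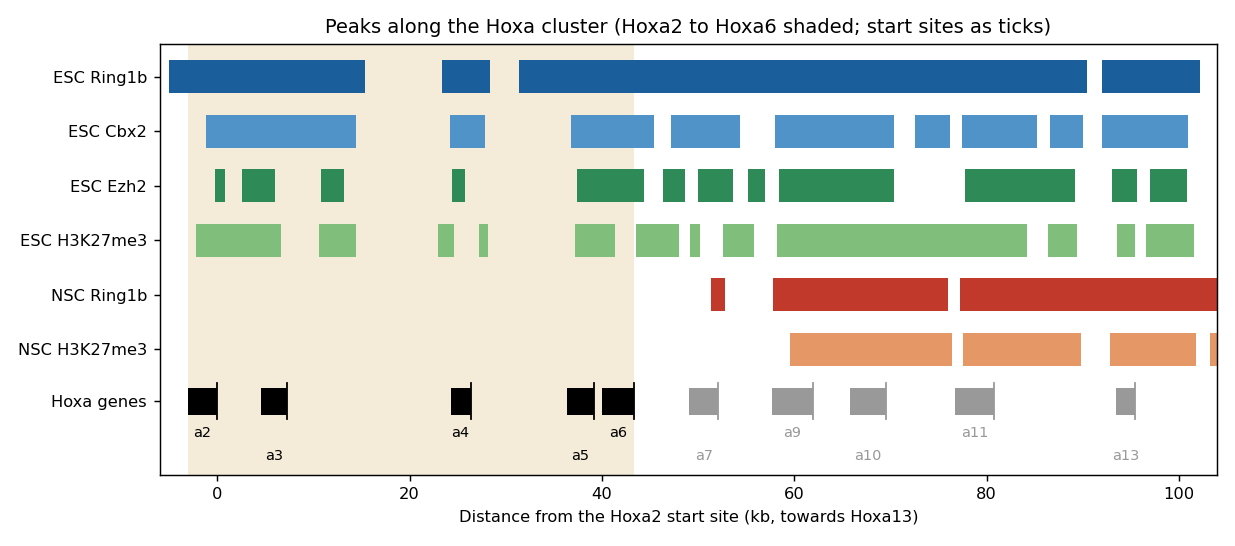
Peaks of the 6 lists (coloured bars, 1 row per list) along the Hoxa cluster, against distance from the Hoxa2 start site in kb. Boxes in the lowest row are the main transcripts, with a tick at each start site and labels shortened from Hoxa2 to a2 and so on. ESC bars run over the shaded stretch from Hoxa2 to Hoxa6, where both NSC rows are empty, and the first NSC Ring1b bar lies at Hoxa7.

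The stretch from the end of Hoxa2 to the start of Hoxa6 (mm9 chr6:52112350-52158721) is 46.372 kb long. In ESCs, Ring1b peaks covered 35.372 kb of it (76.3%), Cbx2 peaks 25.721 kb (55.5%), H3K27me3 peaks 19.4 kb (41.8%) and Ezh2 peaks 14.121 kb (30.5%). NSC Ring1b and NSC H3K27me3 covered 0 kb. The neighbouring stretch from Hoxa7 to Hoxa13, of almost the same length at 46.378 kb, was covered to 96.6% by Ring1b in ESCs and to 81.7% in NSCs, and to 75.5% and 68.3% by H3K27me3. The fall from ESCs to NSCs was therefore 76.3 percentage points of Ring1b cover from Hoxa2 to Hoxa6 and 14.9 points from Hoxa7 to Hoxa13.

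The ESC lists overlapped in part over Hoxa2 to Hoxa6. All bases under Cbx2 peaks and all bases under Ezh2 peaks were also under Ring1b peaks, as were 97.9% of those under H3K27me3 peaks. All 4 lists overlapped on 11000 bp (23.7% of the stretch), in 5 runs of 1000, 3400, 2400, 200 and 4000 bp, and 7451 bp (16.1%) were under Ring1b alone. Of the bases under H3K27me3, 56.7% were also under an Ezh2 peak. No ESC list touched 10600 bp (22.9%), which formed 2 gaps, 7600 bp between Hoxa3 and Hoxa4 and 3000 bp between Hoxa4 and Hoxa5.

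These gaps divided the ESC Ring1b cover into 3 peaks that held Hoxa2 with Hoxa3, Hoxa4 by itself, and Hoxa5 with Hoxa6. The peaks were 20400, 5000 and 59000 bp wide. The last of them ran on through Hoxa7, Hoxa9, Hoxa10 and Hoxa11 and was the widest of the 2335 ESC Ring1b peaks, whose median width was 2200 bp. By gene body plus 10 kb either side the order along the cluster was not smooth, and Hoxa4 was the lowest of the 5 genes in every ESC list.

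**Figure D2:**
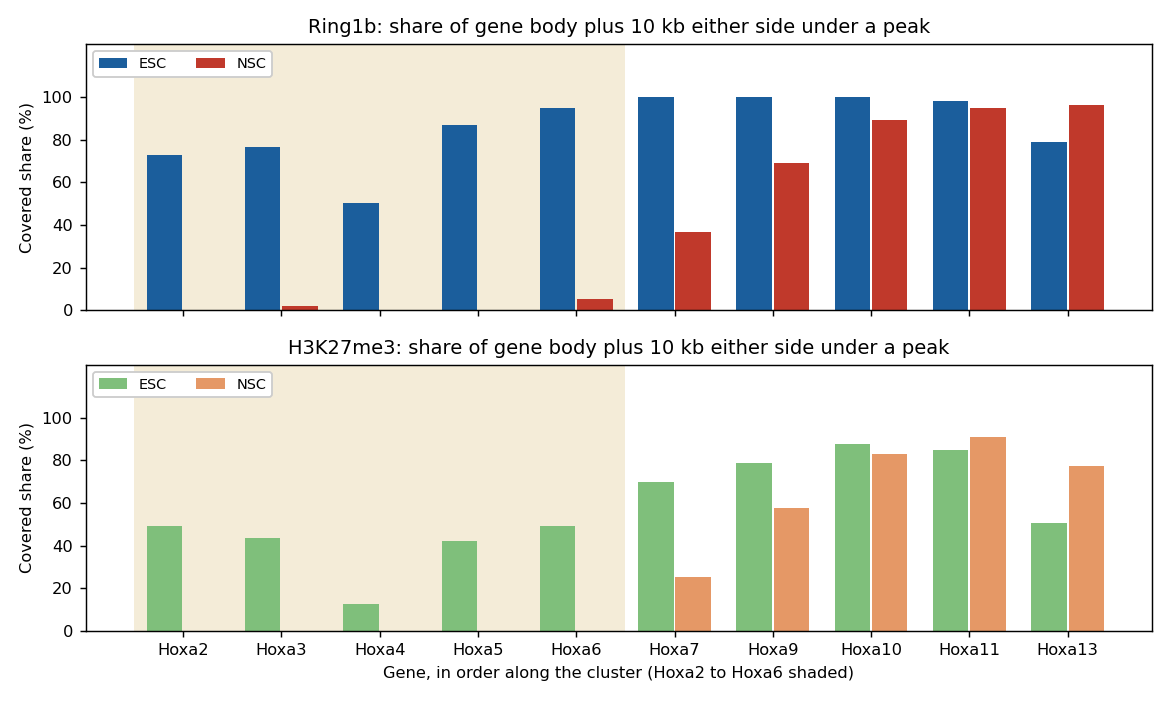
Share of the gene body plus 10 kb either side covered by Ring1b (upper panel) and H3K27me3 (lower panel) peaks, in percent, for the genes from Hoxa2 to Hoxa13 in chromosomal order. Each bar is 1 library, ESC or NSC, with no replicates. From Hoxa2 to Hoxa6 the ESC Ring1b bars lie between 50.2% and 94.7% and the NSC Ring1b bars between 0% and 5.4%, while NSC bars rise from Hoxa7 on.

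Hoxa2, which patterns the hindbrain and the skeleton of the branchial arches, had its start site at position 52115412. The start site lay in a Ring1b peak of 20400 bp, a Cbx2 peak of 15600 bp, an Ezh2 peak of 1000 bp and an H3K27me3 peak of 8800 bp in ESCs. The Cbx2 peak ranked 5 by width among 1033, and the H3K27me3 peak 25 among 2192. By contrast the Ezh2 peak was of the smallest width that the lists contain. Over the gene body plus 10 kb either side (23063 bp), ESC cover was 72.9% for Ring1b, 48.6% for Cbx2, 19.1% for Ezh2 and 49.4% for H3K27me3. NSC cover was 0% for both targets, and the nearest NSC peaks lay 51389 bp (Ring1b) and 59589 bp (H3K27me3) from the start site. Hoxa2 thus had all 4 ESC peaks at a start site with few CpGs before it. The start site itself was not in a CpG island, the nearest island on its gene body being one of 689 bp with 48 CpGs inside the transcript.

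Hoxa3, which is needed for the thymus, parathyroid and throat cartilages, shared its Ring1b and Cbx2 peaks with Hoxa2. Its start site at 52122648 was outside the Ezh2 and H3K27me3 peaks, whose nearest edges lay 1248 and 648 bp away. The annotated transcript used for it begins at the start codon, and the gene has 5 annotated coding start sites. In ESCs 4 of these lay in Ring1b peaks, 4 in Cbx2, 3 in Ezh2 and 3 in H3K27me3 peaks, and in NSCs none did. The gene records span 49.981 kb and run over Hoxa4, Hoxa5 and Hoxa6, so the body plus 10 kb (69981 bp) takes in all of them and Hoxa7. ESC cover of that window was 76.8% for Ring1b, 50% for Cbx2, 32.6% for Ezh2 and 43.7% for H3K27me3. NSC Ring1b cover was 2.2%, made of 1538 bp at and beyond Hoxa7, and NSC H3K27me3 cover was 0%.

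Hoxa4, a gene of cervical vertebra identity, had the narrowest ESC domain. Its Ring1b peak of 5000 bp and Cbx2 peak of 3600 bp held the whole transcript of 2083 bp with its 2 exons. An Ezh2 peak of 1400 bp covered 67.2% of the transcript and ended 552 bp short of the start site. H3K27me3 was present as separate peaks of 1600 and 1000 bp on either side, the nearer 849 bp from the start site. Cover of the body plus 10 kb (22083 bp) was 50.2% for Ring1b, 16.9% for Cbx2, 6.34% for Ezh2 and 12.4% for H3K27me3 in ESCs, and 0% for both targets in NSCs. Of the 5 genes, Hoxa4 had the most CpGs in the 250 bases before its start site and, with the 10 kb flanks, the least ESC peak cover in each of the 4 lists. Over the gene body alone it was lowest for H3K27me3 only (15.9%), with 100% for Ring1b and Cbx2 and 67.2% for Ezh2. Its start site lay in the longest CpG island of the stretch, 1672 bp with 164 CpGs.

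Hoxa5, which is required for lung and neck development, had its start site at 52154586. The ESC peaks there were 59000 bp for Ring1b, 8600 bp for Cbx2, 7000 bp for Ezh2 and 4200 bp for H3K27me3. Cover of the body plus 10 kb (22834 bp) was 86.9%, 52.7%, 40.3% and 42% in the same order. NSC cover was again 0% for Ring1b and for H3K27me3, with the nearest peaks 12215 and 20415 bp from the start site. Hoxa5 and Hoxa2 were the only genes of the 5 with all 4 ESC peaks at the start site.

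Hoxa6 lay under the same Ring1b, Cbx2 and Ezh2 peaks as Hoxa5. Its start site at 52158721 lay 280 bp outside an H3K27me3 peak of 4400 bp. Hoxa6 had the highest cover of the body plus 10 kb (25926 bp) among the 5 genes for Ring1b (94.7%), Cbx2 (60.9%) and Ezh2 (52.3%). H3K27me3 cover was 49.4% for Hoxa6 and 49.4% for Hoxa2. In NSCs a Ring1b peak of 1400 bp entered its window and gave 5.4% cover, and H3K27me3 gave 0%. Of the 5 main start sites, that of Hoxa6 was the closest to the NSC peaks.

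The NSC boundary lay beyond Hoxa6. The 1400 bp NSC Ring1b peak over the Hoxa7 start site began 8080 bp from the Hoxa6 start site, and the next, 18200 bp wide and over Hoxa9, began 14480 bp from it. NSC H3K27me3 began further on, 16280 bp from the Hoxa6 start site, and did not reach the Hoxa7 start site. On the other side the lists were empty much further: the nearest NSC Ring1b peak lay 978.612 kb from the Hoxa2 start site and the nearest NSC H3K27me3 peak 976.012 kb from it. Of these 5 genes, Hoxa3 and Hoxa6 had an NSC Ring1b peak anywhere in the body plus 10 kb, in both cases through the peak at Hoxa7 or beyond, and none had an NSC H3K27me3 peak. Among genes with an ESC peak of the same target in that window, 22.9% of 2555 had an NSC Ring1b peak and 29.6% of 2214 an NSC H3K27me3 peak.

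Between the genes, ESC cover changed sharply. The 4526 bp between Hoxa2 and Hoxa3 were covered to 100% by Ring1b, Cbx2 and H3K27me3, and the 843 bp between Hoxa5 and Hoxa6 to 100% by all 4 lists. The 17021 bp between Hoxa3 and Hoxa4 were covered to 53% by Ring1b, 42.4% by Cbx2, 14.1% by Ezh2 and 29.8% by H3K27me3. In the 10000 bp between Hoxa4 and Hoxa5 the values were 70%, 14.5%, 0% and 10%. The 5775 bp between Hoxa6 and Hoxa7 were covered to 100% by ESC Ring1b and to 0% by either NSC list.

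Transcripts of the opposite strand inside the stretch had the same pattern. The noncoding genes 5730446D14Rik, which starts close to Hoxa2, Gm15050, close to Hoxa3, and 2700086A05Rik, which runs from beyond Hoxa3 past Hoxa6, all had start sites in ESC Ring1b and Cbx2 peaks and in no NSC peak. So did 5730596B20Rik, annotated as coding and overlapping 2700086A05Rik. Ezh2 and H3K27me3 peaks were at the start sites of 5730446D14Rik and 5730596B20Rik. Peaks carry no strand, so these start sites and those of the Hoxa genes cannot be told apart where they lie under 1 peak.

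CpG content was higher under ESC peaks than outside them within the stretch. The bases where all 4 ESC lists overlapped had 39.8 CpGs per kb and an observed to expected ratio of 0.574. Bases under no ESC list had 9.91 per kb and 0.195. Single lists differed less from the bases outside them, with 31.1 against 9.55 per kb for Ring1b and 36.9 against 12.4 for Cbx2. The values were 37.2 against 21.1 per kb for Ezh2 and 31.5 against 22.1 for H3K27me3. Chromosome 6 as a whole had 7.97 per kb and 0.186. The stretch held 18 CpG islands, runs of at least 200 bp with GC above 50% and a ratio above 0.6. ESC Ring1b peaks overlapped 17 of them, Cbx2 12, Ezh2 10 and H3K27me3 10, and NSC peaks overlapped 0. From Hoxa7 to Hoxa13 there were also 18 islands, of which NSC Ring1b overlapped 15 and NSC H3K27me3 14. The median island length was 667 bp from Hoxa2 to Hoxa6 and 710 bp from Hoxa7 to Hoxa13, and islands made up 28.3% and 36.8% of the respective stretch. The number of CpG islands was the same in both stretches, but the CpG content of the stretches as a whole was not. The Hoxa2 to Hoxa6 stretch had 26 CpGs per kb and a ratio of 0.433, and the Hoxa7 to Hoxa13 stretch 33.6 per kb and 0.522. Whether CpG content bears on where NSC peaks lay was not tested. The island without any ESC peak was 367 bp long and lay in the gap between Hoxa3 and Hoxa4.

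**Figure D3:**
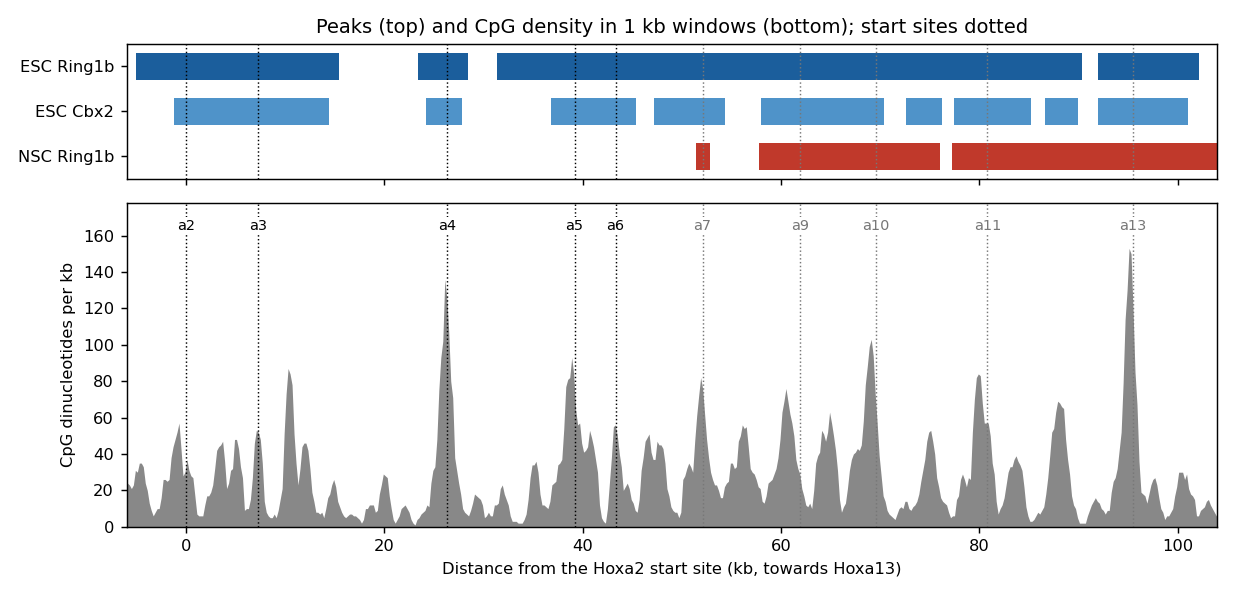
CpG dinucleotides per kb in 1 kb windows every 200 bp (lower panel, grey) and peaks of ESC Ring1b, ESC Cbx2 and NSC Ring1b (upper panel, bars) against distance from the Hoxa2 start site in kb, with start sites dotted. Among the 5 genes CpG density is highest at Hoxa4, it is low in the gap between Hoxa3 and Hoxa4, and the NSC Ring1b bars begin at Hoxa7. CpG-dense DNA is present on both sides of that point.

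To place the genes among all others on an equal footing, cover was also measured over the start site ±10 kb. For Hoxa2, Hoxa3, Hoxa4, Hoxa5 and Hoxa6 in turn, ESC Ring1b covered 84.1%, 90.8%, 49.8%, 88.9% and 100% of it. NSC Ring1b covered 0% for the first 4 genes and 7% for Hoxa6. Among the 1576 genes with the start site in an ESC Ring1b peak the median ESC cover was 13%, below the value of each of the 5 genes. The value of Hoxa4 did not come from a wide peak of its own. It was made of the 5000 bp peak at Hoxa4 and part of the 59000 bp peak that held Hoxa5. In a comparison chosen after the values were seen, 179 of the 1576 genes had ESC Ring1b cover at least that of Hoxa4. Of these, 99 (55.3%) had the start site in an NSC Ring1b peak, and their median NSC Ring1b cover was 34%. NSC cover of 7% or less, as in the 5 Hoxa genes, was found for 54 of the 179, the 5 included.

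**Figure D4:**
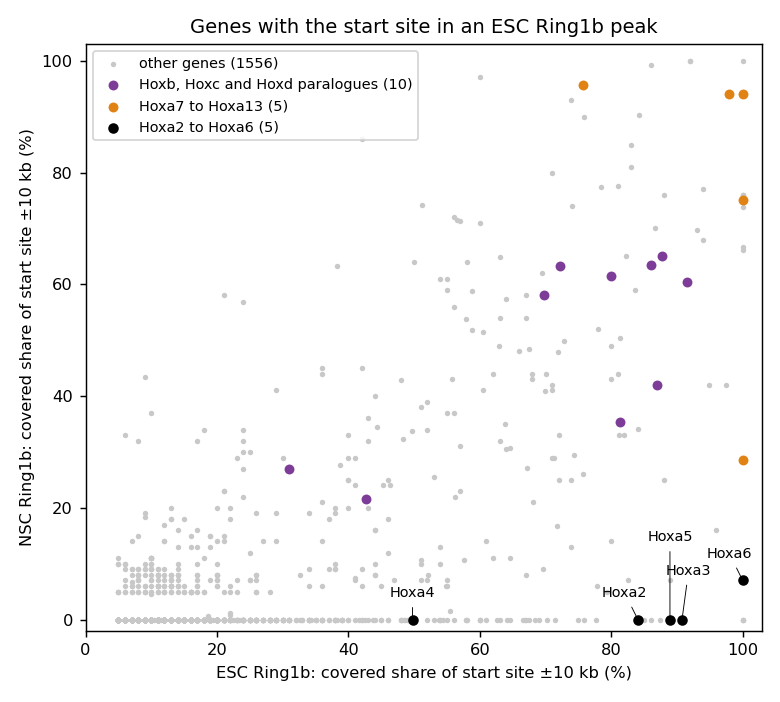
Ring1b cover of the start site ±10 kb in ESCs (horizontal axis, percent) and in NSCs (vertical axis, percent) for each gene with its start site in an ESC Ring1b peak. Black points, Hoxa2 to Hoxa6, sit at 0% to 7% in NSCs, orange points, Hoxa7 to Hoxa13, at 28.5% to 95.6%, and purple points, the 10 paralogues from Hoxb2 to Hoxd4 named in the text, from 21.7% (Hoxd4) to 65% (Hoxb6).

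Paralogues of these genes in the other Hox clusters differed from them. All 10 of Hoxb2 to Hoxb6, Hoxc4 to Hoxc6, Hoxd3 and Hoxd4 had the start site in an ESC Ring1b peak, and 8 in an ESC Cbx2 peak. In NSCs, 8 of the 10 had it in a Ring1b peak and 7 in an H3K27me3 peak. Hoxd3 alone had neither, and still had 35.4% NSC Ring1b cover of the start site ±10 kb. The paralogue of Hoxa3 in the Hoxb cluster, Hoxb3, had 80% ESC and 61.4% NSC cover. Hoxb4 had 87% and 42%, against 49.8% and 0% for Hoxa4, and Hoxb5 86% and 63.5%, against 88.9% and 0% for Hoxa5.

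The anterior Hoxa genes work with cofactors and under regulators that were examined as a list of 15 genes: the Pbx and Meis partners of Hox proteins, the Cdx factors, retinoic acid receptors, the retinoic acid degrading enzyme Cyp26a1 and the hindbrain factor Egr2. In ESCs 6 of the 15 had the start site in a Ring1b peak, namely Pbx3, Meis1, Meis2, Cdx2, Cyp26a1 and Egr2. In NSCs 0 of the 15 had Ring1b there, and Cdx2 and Cyp26a1 had H3K27me3. Over all protein-coding genes the shares were 7.1% for ESC Ring1b, 1.72% for NSC Ring1b and 1.79% for NSC H3K27me3. Of genes with ESC Ring1b at the start site, 16.3% had NSC Ring1b there, so its absence is not particular to this list. Meis1, Meis2 and Cdx2 also had Cbx2 in ESCs, as the 5 Hoxa genes did.

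Genes most like the 5 were ranked by Euclidean distance from their median over 12 values, the 6 start site calls and the 6 covered shares of the start site ±10 kb as fractions. The nearest were Lhx2 (0.326), Dmrta2 (0.328), Pax9 (0.385), Osr2 (0.429) and Lhx1 (0.431). Each had the start site in ESC Ring1b, Cbx2 and Ezh2 peaks and outside the other lists. A call that differed weighed as much as a cover difference of 100%, so genes with the median calls ranked first. These shared calls were thus set by the ranking. ESC Ring1b cover was 77.9% for Lhx2 and 55% for Osr2, and NSC Ring1b cover was 6% for Lhx2 and 0% for the other 4. Hoxa6 itself, the only member with the median calls, was 0.36 from the median. Hoxa4 was 1.23 from it and the other 3 lay between them. Those 4 genes each differed from the median in the ESC Ezh2 or the ESC H3K27me3 call, which made up most of their distance.

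Peaks at marker genes of the cell types were also read. They cannot show the identity of the NSCs, because few genes of any kind had an NSC peak at the start site. Over all protein-coding genes the shares were 1.72% for NSC Ring1b and 1.79% for NSC H3K27me3, against 7.1% for ESC Ring1b and 4.36% for ESC H3K27me3. Of 6 NSC markers found in the annotation, Pax6, Olig2, Olig1 and Nes had the start site in ESC Ring1b and H3K27me3 peaks and 0 of the 6 had an NSC peak there. Of 7 ESC markers, Esrrb alone was in ESC Ring1b and H3K27me3 peaks, and also in an NSC H3K27me3 peak. Among 5 fibroblast markers, which feeder cells express, Twist1 and Prrx1 were in ESC Ring1b peaks and none in an NSC peak. The ESC Ring1b list covered 7.9 Mb and the NSC Ring1b list 3.6 Mb, and for H3K27me3 the lists covered 4.91 and 3.92 Mb. The part of these differences between lists in the values at the Hoxa genes was not tested. Both NSC lists had peaks at the start sites of Hoxa9, Hoxa10, Hoxa11 and Hoxa13.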

How the data were processed

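The labels describe 10 ChIP-seq samples, and the deposited peak lists of 6 of them were used here. Each row of a deposited list is the start and end of 1 peak on mm9, and no measure of its strength is given. The authors aligned paired-end tags (by Bowtie per the paper, by BWA per the submitters' processing notes, a difference that was not resolved) and counted them in windows of 1000 bp at steps of 200 bp. A window was called enriched over input under a negative binomial model, with a size parameter tuned by eye, and enriched windows near each other were joined. Edges are therefore known to 200 bp, and the narrowest peak is 1000 bp. The paper alone states an additional EGS cross-linking step for Ring1b.

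Covered lengths and overlaps of 1 bp or more came from scripts in Python 3.11.15 that used numpy 2.4.6 and matplotlib 3.10.9. The interval functions were tested on simulated peaks. The start site was the 5′ end of the coding transcript with the longest coding sequence in GENCODE vM1, whose assembly is mm9. Groups were taken from the sample titles. No test was run, because there was 1 library per cell type and target. The genes named were the 5 members, their neighbours in the cluster, the paralogues, the list of cofactors and regulators, the 5 most alike genes, annotated genes inside the stretch and the cell markers. The members and lists were chosen with earlier results of these data known. Sox1, an NSC marker, was not found among the coding genes used. Some genes of these lists are not reported here.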

Additional observations from a re-analysis of the deposited data

How the results depend on the processing

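The results for start sites and for the Hoxa2 to Hoxa6 stretch were recomputed under 74 alternatives, of which 66 left them in place and 8 moved them. A count or a difference between ESCs and NSCs was taken as moved when it changed by over 1.5 times. A share was taken as moved when it left the exact 95% binomial interval of the main share counted in steps of 200 bp. Neighbouring steps lie under the same peaks and are not independent, so this interval is only a yardstick and no measure of sampling spread. The count of start sites in ESC H3K27me3 peaks rose from 2 to 4 with peaks within 3 kb merged, to 5 with a peak within 1 kb of the start site accepted, and to 4 with the 5′ end of the gene record. Not counted as moved, the ESC Ezh2 count fell from 3 to 2 by the loss of Hoxa2 with peaks under 2 kb left out, with shortened peaks and at the start codon. It rose to 4 with a peak within 1 kb accepted and with any coding transcript start. Merging within 3 kb moved the covered share from Hoxa2 to Hoxa6 to 82.7% for ESC Ring1b and 51.6% for ESC H3K27me3. Shortening each peak by 400 bp at both ends moved it to 22.7% for ESC Ezh2 and 33.2% for ESC H3K27me3. Extending the stretch by 10 kb either side gave 2.11% for NSC Ring1b. The 66 include outcomes that could not differ. With no NSC peak in the stretch or within 3 kb of it, leaving out, shortening or merging peaks kept NSC cover and NSC start site counts at 0. Where NSC cover was 0%, the difference between ESCs and NSCs was the ESC share itself, so 1 shift was counted under both rules. The 66 are therefore no measure of how stable the results are. For windows of single genes, 58 of 180 alternatives moved the value, and ESC cover stayed above NSC cover for all 5 genes, both targets and all 7 settings tried. These settings reuse the called peaks and do not change the threshold of the calls. Where an NSC list had no peak in the window, as for H3K27me3 at all 5 genes, ESC cover could not fall below NSC cover. The unchanged direction is therefore no test of the difference. The lowest difference was 0.593 percentage points, for H3K27me3 at Hoxa4 with peaks under 2 kb left out. No paired analysis was possible because no result comes from a test and each group has 1 library.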
